A study of Aspergillus niger with 6 samples.

Results

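Of the 11910 genes in the authors' deposited table for Aspergillus niger, 87 encode a Zn2Cys6 DNA-binding domain (Zn_clus in Pfam) and carry neither of the 2 Pfam domains that usually accompany it, Fungal_trans and Fungal_trans_2. The rule that picked these 87 genes used domain names and no expression values, but it was chosen with earlier results of these data known. The study compared mycelium of a strain without rpnR (ΔrpnR), a predicted transcription factor gene that the series places under FlbA, with mycelium of the control strain MA234.1. The labels name 3 libraries per strain, while the design text speaks of duplicates. Conidia of both strains were grown for 16 h on 1% glucose in 300 ml of a transformation medium at 200 rpm, and the mycelium then spent 4 h in 150 ml of minimal medium with 25 mM xylose at 250 rpm, all at 30 °C. The sources used here do not say whether the deletion strain was 1 clone. The targeted gene was not analysed here, which leaves the strain labels unchecked, and whether it lies among the 87 is not stated.

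Each gene has 1 expression value for each strain, read here as FPKM (a fragment count divided by transcript length and sequencing depth). It holds no value per library, so no error can be attached to any level below, and the depth behind the values is unknown. Ratios are given as log2 of FPKM + 1 in ΔrpnR over the control, a scale that understates changes of weakly expressed genes. A gene was counted as changed where its q-value, as given in the authors' deposited table, was under 0.05. A q of 1 was read as a sign that the authors had not tested the gene. Nothing in the sources used here says that libraries of a strain came from separate cultures, so these q-values may measure only technical spread.

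Zn2Cys6 proteins are regulators found almost only in fungi. A cluster of cysteines holds a pair of zinc ions and places the protein on DNA, and Gal4 of yeast and the xylanase regulator XlnR of A. niger belong to this class. In many of them the zinc cluster stands near the start of the protein and is followed by a long middle region, which Pfam calls Fungal_trans and which is thought to modulate activity. Proteins that lack Fungal_trans include AflR, the regulator of aflatoxin synthesis in related aspergilli, and Ume6, a regulator of meiotic genes in baker's yeast. A gene that controls a fungal secondary metabolism cluster often lies within that cluster.

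Taken over all levels, expression of this group of regulators differed between the strains about as much as that of genes in general. The median log2 ratio without its sign was 0.34 for the tested members and 0.33 for all tested genes. It was 0.29 for Zn2Cys6 genes with a Fungal_trans or Fungal_trans_2 domain and 0.23 for the other transcription factors without Zn_clus. The match did not hold at every level. At a mean of 5 to 10 FPKM it was 0.24 for members and 0.34 for all tested genes. At 20 to 50 FPKM it was 0.35 for members and 0.28 for all tested genes. These differences were not tested. In ΔrpnR, 3 genes rose (1161008, 1223905 and 1218496) and 1 fell (1162410), by 2.23-fold to 4.16-fold in FPKM. These 4 calls came from 69 tested members, or 5.80%, next to 6.54% of all 9234 tested genes, so the group was called about as often as genes in general. By direction, the 3 rises stand beside 3.29% of all tested genes called higher, and the 1 fall beside 3.25% called lower. All 4 also carry the authors' flag in the deposited table, which asks for 10 FPKM or more in 1 strain, a 2-fold difference and a q up to 0.05, and which 5.46% of all tested genes carry.

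By named domains the 87 genes share little beyond the zinc cluster, and no sequences were compared. The deposited annotation calls all 87 of them Zn2Cys6 transcription factors. In 84 of them Zn_clus is the only named domain, and the other 3 combine it with domains of enzymes. Gene 1129996 holds a second copy of the Zn_clus domain. None has a predicted secretion signal, and 1 gene, 1207408, has a predicted transmembrane segment. The annotation places 13 of them in 12 secondary metabolism clusters. A KEGG name is given to 3, of which only the UME6 name of 1039744 is that of a regulator. The deposited table gives none of the 87 a gene symbol, so they are called by their protein numbers here, and no chromosomal position is given.

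Most of these regulators were weakly expressed in both strains. The median over the 87 was 6.27 FPKM in ΔrpnR and 5.80 FPKM in the control, and over the 69 tested members it was 8.38 FPKM in ΔrpnR and 9.38 FPKM in the control. Over all 9234 tested genes the medians were 17.5 FPKM in ΔrpnR and 17.7 FPKM in the control. Together the 87 summed to 1777 FPKM in ΔrpnR and 1877 FPKM in the control, which is 0.204% and 0.227% of the summed FPKM of all genes in ΔrpnR and in the control. At least 10 FPKM was reached by 31 members in ΔrpnR and by 33 in the control, and at least 100 FPKM by 4 in ΔrpnR and 5 in the control. The 5 most abundant members made up 50.6% of the group's summed FPKM in ΔrpnR and 55.7% in the control.

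**Figure D1:**
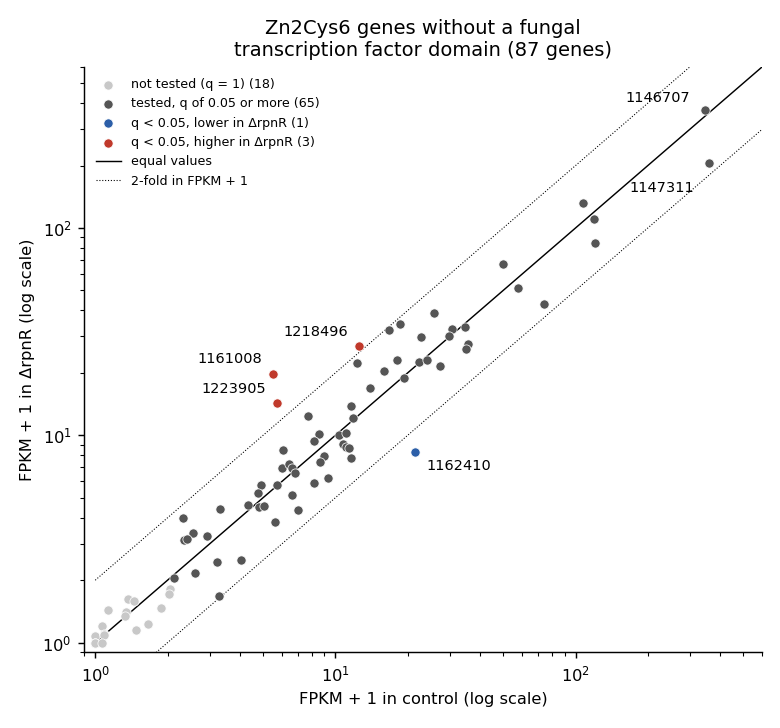
FPKM + 1 of the 87 members in ΔrpnR (vertical, log scale) against the control (horizontal, log scale), 1 point per gene, with the line of equal values and dotted lines at 2-fold. Colours mark the 3 genes called higher, the 1 called lower, the 65 tested genes not called and the 18 genes not tested. Most points lie between the dotted lines.

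Gene 1161008 had the largest rise and the lowest q of the group. It stood at 18.7 FPKM in ΔrpnR and 4.50 FPKM in the control, a 4.16-fold difference and a log2 ratio of 1.84. Its q was 0.0027 in the authors' deposited table, a value also given to genes outside the group, such as 1168194. Gene 1161008 lies in no annotated secondary metabolism cluster and has no named domain other than the zinc cluster.

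Gene 1223905 rose to 13.3 FPKM in ΔrpnR, against 4.72 FPKM in the control. This is a 2.80-fold difference and a log2 ratio of 1.32, with a q of 0.0278 in the authors' deposited table. It is annotated as part of secondary metabolism cluster 66, described with the other cluster genes below.

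Gene 1218496 rose to 25.8 FPKM in ΔrpnR, against 11.6 FPKM in the control, a 2.23-fold difference and a log2 ratio of 1.09 with a q of 0.0301 in the authors' deposited table. Its model joins the zinc cluster to a short-chain dehydrogenase domain, and its KEGG name is that of a fabG-type reductase of fatty acid synthesis. Whether the fragments counted for it came from the regulator part or from the enzyme part of the gene model cannot be told from 1 value per gene.

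Gene 1162410 was the only member called lower. It fell to 7.31 FPKM in ΔrpnR, against 20.5 FPKM in the control, a 2.81-fold difference and a log2 ratio of -1.37, with a q of 0.0209 in the authors' deposited table. Its only named domain is the zinc cluster, and it lies in no annotated cluster.

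A second set of genes had ratios nearly as large and was not called. Gene 1132415 stood at 31.3 FPKM in ΔrpnR and 15.7 FPKM in the control (log2 ratio 0.96), with a q of 0.116 in the authors' deposited table. Gene 1222968 was at 33.5 FPKM in ΔrpnR and 17.5 FPKM in the control (0.90), with a q of 0.0959 in the authors' deposited table. Gene 1182524 was at 21.3 FPKM in ΔrpnR and 11.3 FPKM in the control (0.86), with a q of 0.166 in the authors' deposited table. Their folds were smaller than those of the 3 genes called higher.

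Among genes with lower values in ΔrpnR, 1147311 differed most in absolute level. It was at 205 FPKM in ΔrpnR and 357 FPKM in the control, a log2 ratio of -0.80, and was not called, with a q of 0.467 in the authors' deposited table. Gene 1012915 was at 42.0 FPKM in ΔrpnR and 72.8 FPKM in the control (log2 ratio -0.78), also not called. Gene 1158552 was at 3.37 FPKM in ΔrpnR and 5.96 FPKM in the control (-0.67), gene 1183107 at 6.75 FPKM in ΔrpnR and 10.7 FPKM in the control (-0.59), and gene 37812 at 5.23 FPKM in ΔrpnR and 8.30 FPKM in the control (-0.58). None of these passed the threshold.

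**Figure D2:**
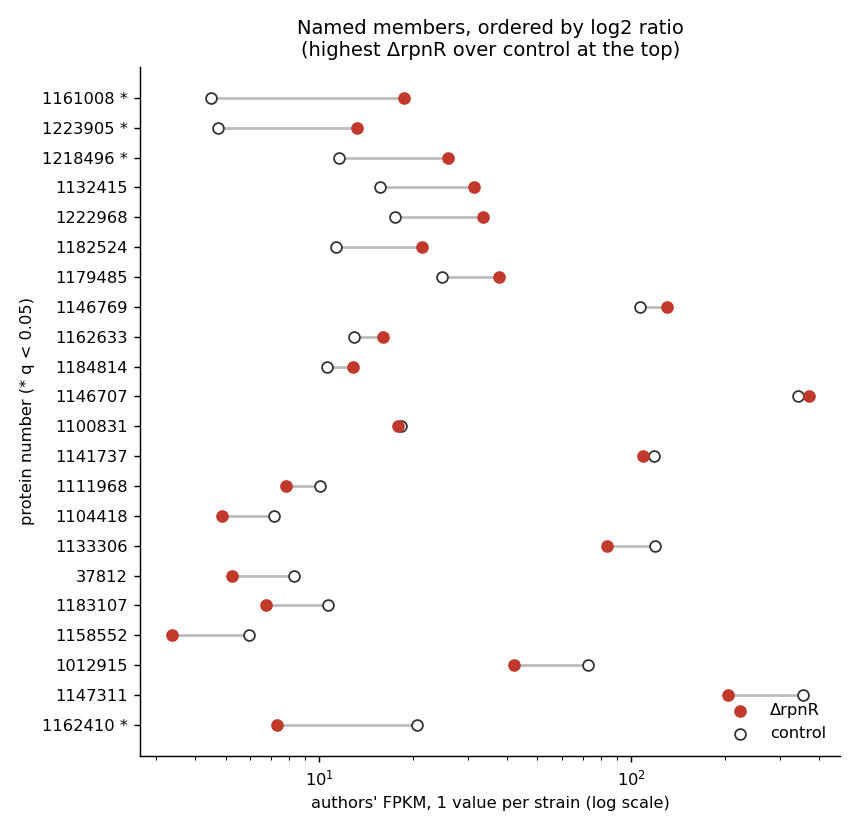
The 22 named members with at least 5 FPKM in 1 strain, from the highest log2 ratio at the top to the lowest at the bottom, with ΔrpnR (filled) and the control (open) on a log FPKM axis; there is 1 value per strain and no error. The 4 starred genes, 1161008, 1223905 and 1218496 at the top and 1162410 at the bottom, are those called from the authors' deposited table.

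A given fold was not matched by a given q. Of the tested members, 5 differed by 1.6-fold to 1.8-fold in either direction. Gene 1012915, with a 1.73-fold difference, had the lowest q of these, 0.162 in the authors' deposited table. Gene 1147311, with a 1.74-fold difference and the highest level of the 5, had the highest, 0.467 in the authors' deposited table. The other 3, at 2.80 to 11.3 FPKM in ΔrpnR and 4.62 to 6.67 FPKM in the control, lay between these q-values.

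Of the 69 tested members, 8 differed by at least 2-fold in FPKM, which is 11.6% beside 15.3% of all tested genes. In ΔrpnR 5 were higher, a direction that 8.17% of all tested genes took, and 3 were lower, beside 7.1% of all tested genes. These 8 include the 4 called genes and 1132415. The remaining 3 were low in both strains, and were named after their values were seen or by the rule for cluster genes. Gene 1092830 was at 0.687 FPKM in ΔrpnR and 2.29 FPKM in the control, and its q of 0.0509 in the authors' deposited table lay just outside the threshold. Gene 1095405 was at 2.99 FPKM in ΔrpnR and 1.33 FPKM in the control. Gene 1128333 was at 1.49 FPKM in ΔrpnR and 3.06 FPKM in the control.

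**Figure D3:**
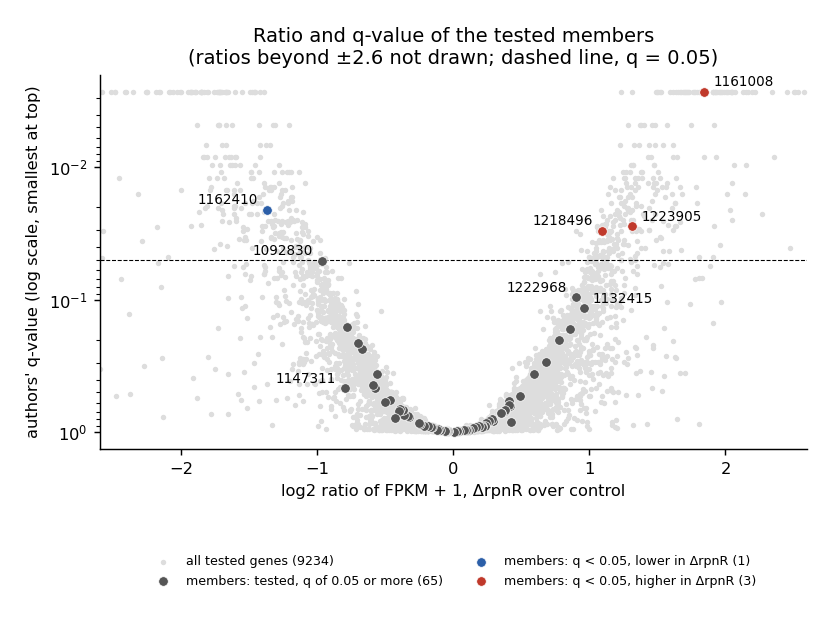
Log2 ratio of FPKM + 1 (horizontal, ΔrpnR over control) against the q-value of the authors' deposited table (vertical, log scale, smallest at the top) for the 69 tested members, over all 9234 tested genes in grey. The 4 called members lie above the dashed line at 0.05, 1092830 lies just below it, and 1147311 has a higher q than members with similar ratios.

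The most abundant members were not called. Gene 1146707 ranked first by the mean of both strains, at 371 FPKM in ΔrpnR and 343 FPKM in the control, ahead of 1147311. Its log2 ratio was 0.11, and -0.084 when the values were rescaled to equal totals without ribosomal protein genes. Gene 1146769 was at 130.3 FPKM in ΔrpnR and 107 FPKM in the control (0.29). Gene 1141737 was at 109 FPKM in ΔrpnR and 119 FPKM in the control (-0.12). Gene 1133306 was at 83.9 FPKM in ΔrpnR and 119 FPKM in the control (-0.50). In the control 1147311 stood above 1146707, and in ΔrpnR the order of the 2 was the other way round. With no value per library, whether neighbours in this order differ could not be tested.

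The following 3 members by mean level, 2 of them named after their values were seen, were 1012915, given above, 1129996 and 1039744. Gene 1129996, with the doubled zinc cluster, was at 65.9 FPKM in ΔrpnR and 48.8 FPKM in the control (log2 ratio 0.43). Gene 1039744 carries the KEGG name UME6, which in baker's yeast is a DNA-binding repressor and activator of early meiotic genes. It was at 50.3 FPKM in ΔrpnR and 56.6 FPKM in the control (log2 ratio -0.17) and was not called.

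Of the members that join a zinc cluster to enzyme domains, all 3 had higher values in ΔrpnR, as had 51.3% of all tested genes. Only 1218496, described above, was called. Gene 1179485 combines the zinc cluster with Mac and Hexapep domains of sugar acetyltransferases. It was at 37.8 FPKM in ΔrpnR and 24.7 FPKM in the control (log2 ratio 0.59), with a q of 0.360 in the authors' deposited table. Gene 1162633 combines it with domains of a 2-hydroxyacid dehydrogenase and of a protein kinase, and its KEGG name is that of a D-lactate dehydrogenase. It was at 16.0 FPKM in ΔrpnR and 12.9 FPKM in the control (log2 ratio 0.29), with a q of 0.795 in the authors' deposited table. Without these 3 genes, 3 of 66 tested members were called, and 33 values lay above and 33 below the control.

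The 13 members that lie in secondary metabolism clusters, where the genes for 1 fungal compound are grouped, included 9 that were tested. Of these 9, only 1223905 of cluster 66 was called. Tested cluster members had a median of 4.87 FPKM in ΔrpnR and 4.72 FPKM in the control, next to 9.10 FPKM in ΔrpnR and 9.92 FPKM in the control for the 60 tested members outside clusters. Over the 12 clusters, 62 other genes were tested, of which 7 were called higher and 2 lower. That is 14.5%, in 5 clusters, next to 6.54% of all tested genes, and 4 of the 9 lie in cluster 73 alone. Neighbouring genes of a cluster are often regulated together and are not independent observations.

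In cluster 66, 1 other gene was called besides 1223905. It is a short-chain dehydrogenase gene, 1178396, which rose to 16.6 FPKM in ΔrpnR, against 3.67 FPKM in the control. Of the 6 other tested genes of this cluster, 5 had higher values in ΔrpnR, and the median log2 ratio of the 6 was 0.56. The higher genes apart from 1178396 had q-values from 0.328 to 0.949 in the authors' deposited table. The polyketide synthase gene of the cluster (1223918), which would build the carbon skeleton of its product, was at 0.628 FPKM in ΔrpnR and 0.218 FPKM in the control and was not tested. The NRPS-like gene (1154309) was at 0.308 FPKM in ΔrpnR and 0.532 FPKM in the control and was not tested either.

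In cluster 73, all 14 other genes were tested, 4 of them rose and 11 had higher values, with a median log2 ratio of 0.77. Its polyketide synthase gene (1168194) rose to 6.67 FPKM in ΔrpnR, against 0.403 FPKM in the control. The member of that cluster, 1188142, was at 2.15 FPKM in ΔrpnR and 1.41 FPKM in the control, a log2 ratio of 0.38, and was not called.

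In cluster 54 the member and its neighbours did not move in 1 direction. The member 1092830 had the lower value in ΔrpnR given above, while 4 of the 5 other tested genes had higher values, with a median log2 ratio of 0.63. Of these 5, a transporter gene of the major facilitator type (1220612) rose to 8.27 FPKM in ΔrpnR, against 2.12 FPKM in the control. A histidine phosphatase domain gene (1166770) fell to 1.60 FPKM in ΔrpnR, against 6.37 FPKM in the control. The cluster's NRPS gene (44571), for a peptide synthetase, was listed at 0 in both strains.

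In cluster 64, whose member 1095405 was not called, 1 of 9 other tested genes was called. It is a zinc-type alcohol dehydrogenase gene (1111755), which rose to 172 FPKM in ΔrpnR, against 24.4 FPKM in the control. Of the 9 other tested genes, this one included, 4 lay above and 5 below the control. Cluster 64 also holds 2 Zn2Cys6 genes with a Fungal_trans domain, and clusters 54 and 67 hold 1 each. In cluster 36, 1 of 5 other tested genes fell, an FAD-binding monooxygenase domain gene (1135506) at 2.21 FPKM in ΔrpnR and 8.72 FPKM in the control. Its member 1184814 was at 12.8 FPKM in ΔrpnR and 10.6 FPKM in the control (log2 ratio 0.26) and was not called.

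In the remaining 7 clusters neither the member nor another gene was called. Gene 1104418 of cluster 28 was at 4.87 FPKM in ΔrpnR and 7.13 FPKM in the control (log2 ratio -0.47). Gene 1111968 of cluster 67 was at 7.80 FPKM in ΔrpnR and 10.1 FPKM in the control (-0.33), and gene 1100831 of cluster 11 at 17.8 FPKM in ΔrpnR and 18.3 FPKM in the control (-0.038). Gene 1099911 of cluster 7 was at 1.05 FPKM in ΔrpnR and 1.13 FPKM in the control. The members of clusters 14, 30 and 52 and the second member of cluster 28 were not tested. Over all 12 clusters, 12 of the 15 genes for the synthases that make the product backbone were under 1 FPKM in both strains.

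**Figure D4:**
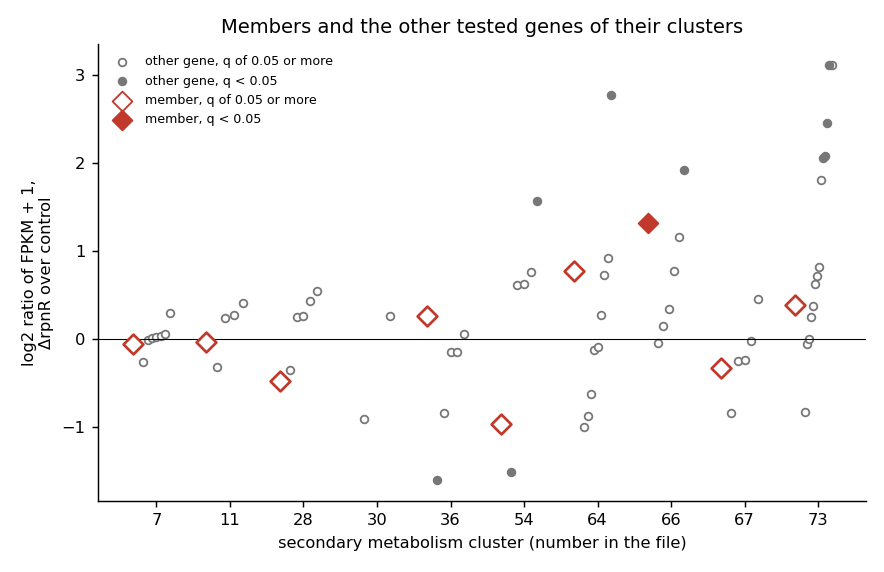
Log2 ratios of FPKM + 1 (ΔrpnR over control) of the tested genes of the 10 secondary metabolism clusters that hold a member and have tested genes, 1 column per cluster. Red diamonds are members (none was tested in cluster 30), circles are the other genes, and filled symbols are genes called from the authors' deposited table; filled circles stand in clusters 36, 54, 64, 66 and 73, and the only filled diamond in cluster 66.

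Across all 69 tested members, 36 values (52.2%) lay above and 33 below the control, next to 51.3% above over all tested genes. When the values were rescaled to equal totals without ribosomal protein genes, 27 members lay above and 42 below. Such a split of all tested genes was not counted. The median log2 ratio of all tested genes moved to -0.16 under this rescaling and that of the members to -0.15. Without rescaling, the median log2 ratio of the members was 0.026, with quartiles at -0.33 and 0.35, next to a median of 0.016 and quartiles of -0.31 and 0.34 over all tested genes. The ratios of 29 members (42.0%) lay within 0.25 of 0, against 40.4% of all tested genes. These 29 were spread over the whole range of levels, and 8 of them had a mean of 20 FPKM or more. Another 18 uncalled members had log2 ratios from 0.26 to 0.96, and 18 had ratios from -0.96 to -0.26.

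The 4 called members had means between 5 and 20 FPKM. Of 10 tested members with a mean of 10 to 20 FPKM, 3 were called, where 7.14% of all tested genes at that level were. Values were higher in ΔrpnR for 8 of these 10, and for 821 of all 1681 tested genes at that level. Of 19 tested members with a mean of 5 to 10 FPKM, 1 was called, beside 5.94% of all tested genes. Here 8 of the 19 had higher values, and 564 of all 1297 tested genes did. None of the 20 tested members with a mean under 5 FPKM was called (3.92% of all tested genes), nor any of the 20 with a mean of 20 FPKM or more (7.64% of all tested genes). Of the 8 with a mean of at least 50 FPKM, 3 had higher and 5 had lower values in ΔrpnR. Of all 2353 tested genes at that level, 1312 had higher and 1041 lower values. These counts are small, and no test was made between levels.

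The 18 members that were not tested were close to silent in both strains. Their highest values were 0.819 FPKM in ΔrpnR and 1.05 FPKM in the control. Of these, 3 (1092538 of cluster 52, 1114501 and 1157531) were listed at 0 in both strains. Gene 39767 was listed at 0 in the control and at 0.0724 FPKM in ΔrpnR, and gene 1180524 at 0 in ΔrpnR and at 0.0688 FPKM in the control. No member was at 0 in 1 strain and at 1 FPKM or more in the other.

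Zn2Cys6 genes that do carry a Fungal_trans or Fungal_trans_2 domain are the closest group for comparison. Of 235 such genes, 200 were tested, 6 were called higher and none lower, which is 3.0% beside the 5.80% of the members. Every one of these calls rests on a q of the authors' deposited table. At a looser q of under 0.1, the members had 4 higher and 2 lower genes, and the genes with the domain had 10 higher and 0 lower, where 4.83% of all tested genes were higher and 4.58% lower. Among the 200, 129 values (64.5%) lay above the control and the median log2 ratio was 0.16, against 52.2% and 0.026 among the members. Over all tested genes the share above was 51.3% and the median 0.016. Whether the 2 groups differ was not tested, and genes of a group are not replicates of a condition.

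Other transcription factors of the deposited annotation without a Zn_clus domain numbered 234, of which 211 were tested, 7 were called higher and 1 lower. That is 3.79%, beside 6.54% of all tested genes (3.29% higher and 3.25% lower). Their median log2 ratio was -0.012, and 105 values lay above and 106 below the control. They were more abundant, with a median of 12.9 FPKM in ΔrpnR and 13.3 FPKM in the control. Among genes with other DNA-binding domains and no Zn_clus, 1 of 56 tested zf-C2H2 genes was called higher and 1 lower. The lowest log2 ratio of the zf-C2H2 genes was -7.79, also the lowest of all tested genes. Whether the targeted gene lies in these comparison groups was not examined. Of 13 Myb genes, 1 was called higher. None of 17 bZIP, 9 HLH, 7 GATA and 7 homeobox genes was called from the authors' deposited table. In groups this small, an absence of calls says little beside 6.54% of all tested genes.

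**Figure D5:**
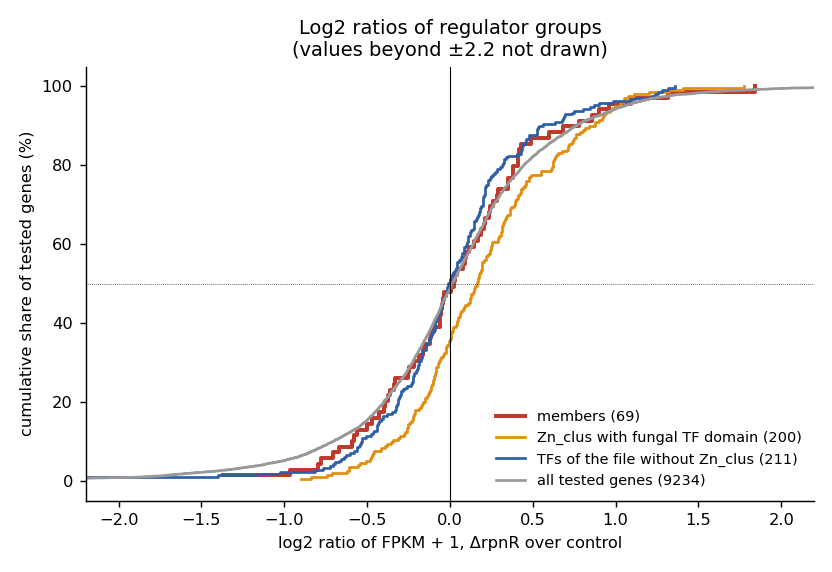
Cumulative share of tested genes (vertical, percent) by log2 ratio of FPKM + 1 (horizontal, ΔrpnR over control) for the 69 members, the 200 Zn2Cys6 genes with a fungal transcription factor domain, the 211 other transcription factors and all 9234 tested genes. The curve of the members crosses 50% near 0 (median 0.026), close to that of all genes (0.016), and the curve of the genes with the domain crosses it at 0.16.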

How the data were processed

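Total RNA of A. niger mycelium was sequenced on Illumina instruments. Cuffdiff 2.2.1, Cufflinks, TopHat2, Trimmomatic and CASAVA 1.8.3 were used, per the submitters' processing notes, which give them no role or order. The genome build is not given in the sources used here, nor are the gene models. The authors deposited 1 expression value per gene and strain, read here as FPKM because Cuffdiff reports that unit, and 1 q-value per gene, per the file headers. Columns of other samples numbered 0. The deposited flag differed from its stated rule in 0 rows.

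Values were read with Python 3.11.15 and pandas 2.3.3. Log2 ratios used a pseudocount of 1. Of all genes, 2676 had a q of 1 (highest value 7.50 FPKM) and were taken as not tested. No test of a gene list was made, and the summaries were tested on simulated data. Genes named are all called members, the 6 largest rises and 6 largest falls among tested members with at least 5 FPKM in 1 strain, the 5 most abundant, those with a second domain or in a cluster, and any at 0 in 1 strain only with at least 1 FPKM in the other. Others were named after their values were seen. The members and lists were chosen with earlier results of these data known. Alternatives covered the q threshold, the flag, the pseudocount, low values, scaling and the member rule. No sequences were matched to the protein numbers.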

Additional observations from a re-analysis of the deposited data

How the results depend on the processing

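No paired analysis was possible because the deposited table holds 1 value per strain and none per library, and for the same reason no library could be left out. The count of 4 called members became 1 (1161008) at a q under 0.01 and 6 at a q under 0.1. It was 4 with the authors' flag and when members had to average 5 FPKM or more, and 3 among genes with Zn_clus as sole domain. The median log2 ratio of the tested members was 0.027 with a pseudocount of 0.1, 0.022 with 5, 0.028 when members had to average 5 FPKM or more, 0.0060 with all 87 members and 0.011 after centring on all tested genes. It was -0.015 for genes with Zn_clus as sole domain. With equal totals without 108 ribosomal protein genes it was -0.15, a scaling that moved the median of all tested genes to -0.16. Under that scaling, tried for single genes after seeing the data, 25 of the 26 named members kept the sign of their ratio, and 1146707 turned to -0.084. Depth is unknown and limits what can be said of members near 1 FPKM.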
